A study of Mus musculus with 9 samples.

Results

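Scarb1, the liver X receptors (LXRs) and the genes of cholesterol efflux were examined in CD11b+ bone marrow cells, the myeloid cells of the marrow. The 10 genes were chosen by name, with earlier results of these data known: the HDL receptor gene Scarb1, the efflux genes Abca1, Abcg1 and Apoe, the LXR genes Nr1h2 and Nr1h3, the LXR targets Mylip and Srebf1, and Soat1 and Npc1, which act on cholesterol inside the cell. All 10 were among the 23337 genes in the counts and among the 12553 that passed a filter on low counts. The 9 libraries each came from a separate male mouse of the C57BL/6 strain, obtained at 3 to 6 weeks of age, and 3 mice made up each group. The first group received PBS. The second received EnzR EVs, extracellular vesicles shed by enzalutamide-resistant CWR-R1 prostate cancer cells, as 10 µg of EV protein in 100 µl by tail vein on days 1, 3 and 5. The third received the same EnzR EVs and, on days 0, 2 and 4, HDL NPs, synthetic particles that mimic high-density lipoprotein, dosed at 1 µM by the labels and at 100 µM by the written methods. Marrow was taken 24 h after the final injection. No group received HDL NPs alone, so the design compares the particles only on top of EnzR EVs.

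Cholesterol leaves a myeloid cell by several routes. The product of Scarb1, the receptor that HDL NPs bind, exchanges cholesterol with HDL in both directions, while the pumps encoded by Abca1 and Abcg1 load it onto lipid-poor apolipoproteins and onto HDL, and Apoe encodes an acceptor that macrophages secrete. When sterols build up, oxysterols activate the LXRs, which pair with retinoid X receptors and switch on the pumps, Apoe, the ubiquitin ligase gene Mylip and the lipogenic factor Srebf1. Cholesterol that arrives through the lysosome is released by the product of Npc1, and the product of Soat1 esterifies the surplus for storage.

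Total counts were 6006087, 16381679 and 15972757 in PBS replicates 1 to 3, 2575776, 18110561 and 8554487 in EnzR EVs replicates 1 to 3, and 15602936, 16611934 and 13231038 in EnzR EVs + HDL NPs replicates 1 to 3. A floor of 3 counts corresponded to between 0.166 and 1.16 CPM across these totals. CPM sets a gene's counts against the library total, and all gene levels given here in CPM are also scaled by normalization factors (TMM, trimmed mean of M values). As the reads carry no molecular identifiers, the floor covers counting error only. In 3 libraries a large share of the counts lay on Rn45s, the ribosomal RNA precursor: 20.3% in PBS replicate 1, 42.7% in EnzR EVs replicate 1 and 14.2% in EnzR EVs replicate 3, against 0.657% to 2.87% in the other 6. These 3 libraries also had the lowest totals. None belonged to the EnzR EVs + HDL NPs group, so every difference between that group and EnzR EVs also compares libraries low in Rn45s with a group in which 2 of 3 were high.

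The labelled cells were checked against their markers. Itgam, which encodes CD11b, ranged from 1389 to 2006 CPM over the 9 libraries. Of 12 listed granulocyte and monocyte markers, 11 were in the counts (Ly6g was not matched) and 0 of these were at 0. Their summed level was 32929, 86031 and 82901 CPM in the PBS mice, 16806, 96518 and 41357 CPM after EnzR EVs, and 82271, 116170 and 57161 CPM after EnzR EVs + HDL NPs. By the mean over the 9 libraries S100a9 was the most abundant. Ltf was above S100a9 in PBS replicate 1 (12260 against 9894 CPM) and in EnzR EVs replicates 1 (8523 against 2229 CPM) and 3 (16160 against 12420 CPM). The lowest sums were those of the 3 libraries high in Rn45s. In bulk RNA, fewer cells of a type and less RNA per cell cannot be told apart.

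At these depths 0 of 10 genes passed an adjusted p of 0.05 in edgeR's quasi-likelihood test in any of the 3 comparisons, nor did any other gene, so that 0% of the 12553 tested genes were called in each. For EnzR EVs against PBS, 436 genes had an unadjusted p under 0.05 in edgeR, and the count past the adjusted threshold was 8 with DESeq2, 0 with limma voom and 1990 with voom and sample quality weights. DESeq2 was run without the filter on low counts, on 18797 genes, so that its counts differ in both tool and filter. The corresponding counts (edgeR unadjusted, then DESeq2, voom and weighted voom) for EnzR EVs + HDL NPs against PBS were 268, 7, 0 and 10, and for EnzR EVs + HDL NPs against EnzR EVs they were 1325, 1, 0 and 653. The values below are therefore levels and intervals, and "lower" or "higher" describes the samples.

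Among the 10 genes, Apoe and Abca1 had an unadjusted p under 0.05 in both comparisons with PBS, lower each time. That is 2 of 10 against 1.92% of all tested genes for EnzR EVs and 1.12% for EnzR EVs + HDL NPs. On the higher side it was 0 of 10 genes, against 1.55% and 1.02% of all tested genes. Both comparisons use the same 3 PBS mice and are not independent of each other. Between EnzR EVs + HDL NPs and EnzR EVs, 1 of 10 (Soat1) was lower at that threshold against 6.97% of all tested genes, and 0 of 10 were higher against 3.58%. The median log2 fold change of the 10 genes was −0.29, −0.15 and 0.11 in the 3 comparisons in this order, beside −0.027, −0.0072 and 0.033 over all tested genes.

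**Figure D1:**
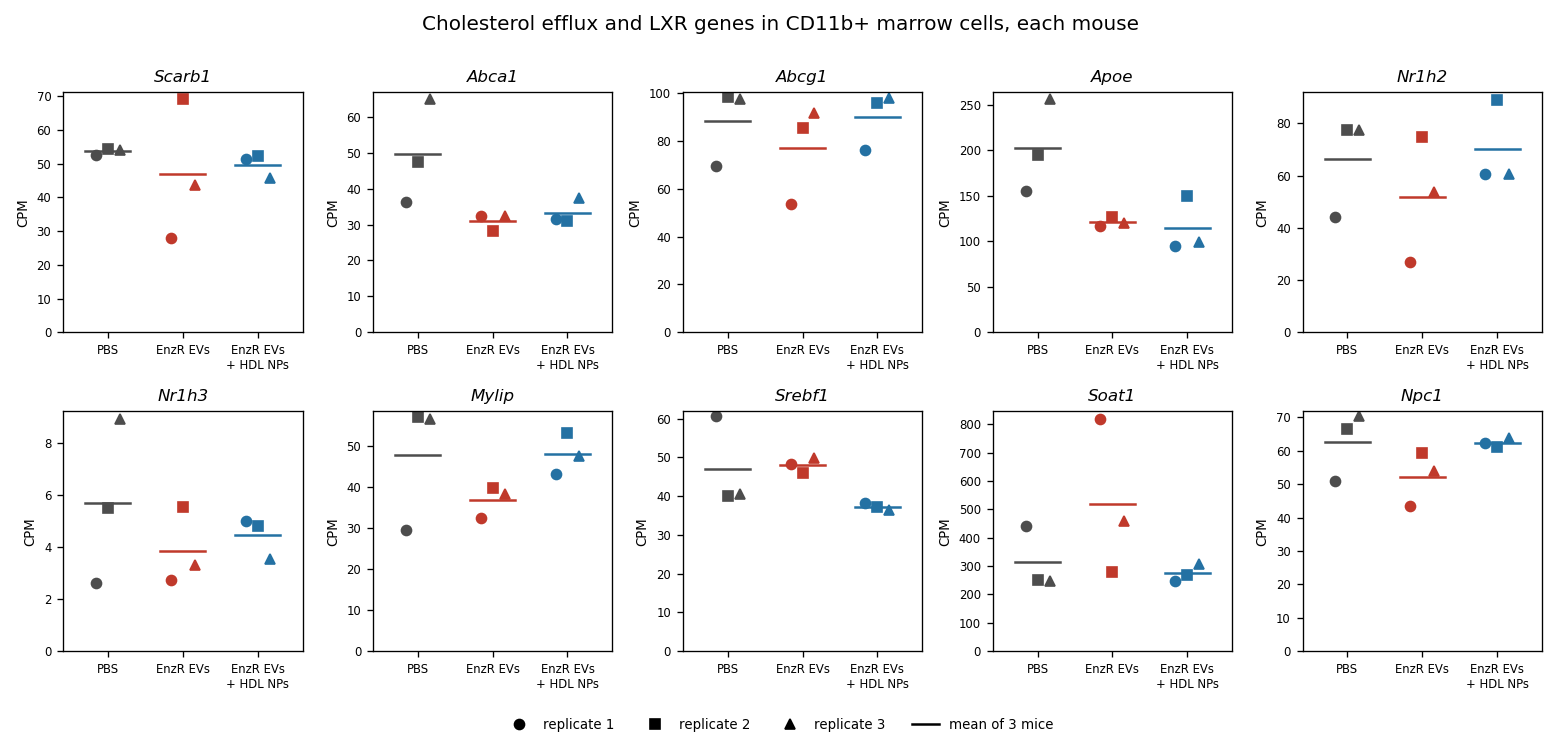
CPM of the 10 genes in each of 9 mice (y axes start at 0; x axis, group; circles, squares and triangles are replicates 1, 2 and 3; lines are means of 3 mice). Apoe is lower in all 6 mice given EnzR EVs than in the 3 PBS mice, while Scarb1 lies between 45.7 and 54.4 CPM in the 6 mice outside the EnzR EVs group.

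Per kilobase of the longest transcript, the order of levels in PBS mice ran from Apoe (144 ± 35.9 CPM per kb, SD, n = 3) through Soat1 (37.4 ± 13.2), Nr1h2 (33.2 ± 9.68), Scarb1 (17.3 ± 0.340), Mylip (15.6 ± 5.13), Abcg1 (15.2 ± 2.83), Srebf1 (10.96 ± 2.74), Npc1 (10.9 ± 1.80) and Abca1 (4.83 ± 1.42) to Nr1h3 (2.87 ± 1.58). The PBS mice separated Apoe from Soat1, Nr1h2 from Scarb1, and Npc1 from Abca1. All other neighbours in this order overlapped between mice. With the union of all annotated exons as the length, Scarb1 moved from rank 4 to rank 7, and the first 3 and last 3 ranks stayed as they were. LXR-beta, the product of Nr1h2, was thus the more abundant LXR transcript in every PBS mouse, and Nr1h3 (LXR-alpha) was the least abundant of the 10 genes.

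Scarb1 (chr5:125277087-125341094, minus strand, GRCm38) measured 52.5, 54.4 and 54.2 CPM in the PBS mice. After EnzR EVs it measured 28.0, 69.2 and 43.6 CPM, from 51, 1300 and 369 counts. After EnzR EVs + HDL NPs it measured 51.3, 52.2 and 45.7 CPM. The PBS mice agreed to within a coefficient of variation of 1.96%, whereas the EnzR EVs mice varied by 44.3% and lay on both sides of them. The log2 fold change for EnzR EVs against PBS was −0.16 (SE 0.26, 95% interval −0.74 to 0.42, adjusted p = 0.934, edgeR). The interval allows a level between 0.599 and 1.34 times that of PBS. Without EnzR EVs replicate 1, the shallowest library, the difference was 0.080, and without EnzR EVs replicate 2 it was −0.52 (unadjusted p = 0.0273, adjusted p = 0.284). The direction in the EnzR EVs group therefore rested on which library was left out.

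The log2 fold change of Scarb1 for EnzR EVs + HDL NPs against PBS was −0.11 (SE 0.26, 95% interval −0.68 to 0.46, adjusted p = 1.00, edgeR). All 3 mice lay below the PBS mice, but the highest of the former (52.2 CPM) and the lowest of the latter (52.5 CPM) nearly touched. Groups failed to overlap, with the EnzR EVs + HDL NPs group the lower, for 3 of 10 genes (Scarb1, Apoe and Srebf1), against 6.21% of all tested genes, and with that group the higher for 0 of 10, against 6.96%. The two-sided exact permutation p was 0.10 for each, the smallest that 3 against 3 mice can give. Compared with EnzR EVs, adding the particles left Scarb1 at a log2 fold change of 0.051 (SE 0.26, 95% interval −0.53 to 0.63, adjusted p = 0.937, edgeR). In the libraries with under 10% Rn45s this value was −0.48 (unadjusted p = 0.00900, adjusted p = 0.958), where the EnzR EVs group is replicate 2 alone, assumed to vary like the other groups. Per kilobase of the longest transcript, Scarb1 stood above 72.4% of the 11347 tested genes with a matched length. That rank depends on the length used, as its mean in PBS mice was 17.3 CPM per kb by that length and 6.31 by union exons.

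Of the 11625 other genes with a mean of at least 1 CPM, the 5 whose log2 CPM tracked Scarb1 most closely over the 9 libraries were Sephs1 (Pearson r = 0.988), Tssc1 (0.984), Nudt21 (0.977), Pcna (0.973) and Pxmp4 (0.971). Pcna, the sliding clamp of DNA replication, measured 29.6, 73.8 and 53.0 CPM in the EnzR EVs mice and between 54.1 and 65.6 CPM in the other 6. These r values describe 9 libraries in which the EnzR EVs mice set most of the range, and the libraries share differences in depth and Rn45s. Without the 2 libraries with the lowest totals, r for these 5 genes was 0.963, 0.950, 0.940, 0.927 and 0.919, and only Sephs1 stayed among the first 5. Within the 10 genes, Nr1h2 had the highest r with Scarb1 (0.819, rank 1421) and Soat1 the lowest (−0.827).

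Apoe (chr7:19696109-19699188, minus strand) measured 156, 195 and 256 CPM in the PBS mice. It measured 116, 126 and 120 CPM after EnzR EVs, and 94.7, 150.0 and 99.7 CPM after EnzR EVs + HDL NPs. Every mouse given EnzR EVs, with or without HDL NPs, lay below every PBS mouse. The means were 202 ± 50.6 CPM after PBS, 121 ± 5.10 CPM after EnzR EVs and 115 ± 30.6 CPM after EnzR EVs + HDL NPs (SD, n = 3 mice each). For EnzR EVs against PBS the log2 fold change was −0.74 (SE 0.23, 95% interval −1.24 to −0.24, unadjusted p = 0.00800, adjusted p = 0.928, edgeR), and the gene ranked 62 by p. In EnzR EVs + HDL NPs against PBS it was −0.82 (SE 0.23, 95% interval −1.32 to −0.32, unadjusted p = 0.00430, adjusted p = 1.00), rank 23. Groups failed to overlap on the lower side for 2 of 10 genes (Apoe and Abca1) between EnzR EVs and PBS, against 4.52% of all tested genes, and on the higher side for 0 of 10, against 3.43%. Between the groups given EnzR EVs the difference was −0.078 (95% interval −0.58 to 0.42), within the spread between mice.

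Abca1 (chr4:53030787-53159895, minus strand) had 36.3, 47.3 and 65.0 CPM in the PBS mice, 32.4, 28.3 and 32.3 CPM after EnzR EVs, and 31.5, 30.9 and 37.5 CPM after EnzR EVs + HDL NPs. The EnzR EVs mice all lay below the PBS mice, while in the EnzR EVs + HDL NPs group replicate 3 lay above PBS replicate 1. The log2 fold change was −0.69 for EnzR EVs against PBS (SE 0.22, 95% interval −1.18 to −0.20, unadjusted p = 0.00983, adjusted p = 0.928, edgeR). It was −0.58 for EnzR EVs + HDL NPs against PBS (SE 0.21, 95% interval −1.05 to −0.11, unadjusted p = 0.0212, adjusted p = 1.00). Between the groups given EnzR EVs it was 0.11 (95% interval −0.37 to 0.59). PBS replicate 3 weighed on both genes: without it, EnzR EVs against PBS gave −0.43 (unadjusted p = 0.0705) for Abca1 and −0.52 (unadjusted p = 0.0516) for Apoe, and EnzR EVs + HDL NPs against PBS gave −0.34 (unadjusted p = 0.137) for Abca1 and −0.62 (unadjusted p = 0.0258) for Apoe. Without the 3 libraries high in Rn45s the differences were larger, −0.99 for Abca1 and −0.83 for Apoe after EnzR EVs, then a single library, and −0.75 and −0.97 after EnzR EVs + HDL NPs (adjusted p = 0.199 for both genes in the last comparison).

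Markers of marrow macrophages, cells that use both genes, were lower alongside them. All 14 listed markers were detected, Slc40a1, the iron exporter, was the most abundant at a mean of 452 CPM, and 0 were at 0 in all libraries. Their summed level was 1301, 1695 and 2353 CPM in the PBS mice. It was 1126, 1370 and 1199 CPM after EnzR EVs and 1506, 1368 and 1362 CPM after EnzR EVs + HDL NPs. PBS replicate 3 had the highest sum, the highest Apoe and the highest Abca1, and the groups overlapped. Against PBS, 13 of 14 markers were lower after EnzR EVs and 14 of 14 after EnzR EVs + HDL NPs (median log2 fold changes −0.75 and −0.46), with 6 and 3 at an unadjusted p under 0.05, against 1.92% and 1.12% of all tested genes, and 0 and 0 called by edgeR. The scavenger protein gene Cd5l (−1.07 and −0.82) and the receptor tyrosine kinase gene Axl (−0.78 and −0.72) were among these in both.

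Apoe and Abca1, which are not among the 14 markers, were also set against the macrophage sum, a scale chosen after the values were seen. The ratio of Apoe to the sum was 11.96%, 11.52% and 10.88% in the PBS mice. It was 10.3%, 9.23% and 10.0% after EnzR EVs, and 6.29%, 10.96% and 7.32% after EnzR EVs + HDL NPs. The EnzR EVs mice were still below the PBS mice, by a log2 ratio of means of −0.22 in place of the fitted −0.74 (two-sided exact permutation p = 0.10). C1qb, the 1 marker higher after EnzR EVs (log2 fold change 0.73), measured 191 CPM in EnzR EVs replicate 1. In the other libraries it lay between 33.3 and 68.9 CPM. This marker enlarges the sum of EnzR EVs replicate 1 and lowers its ratio, and the order without C1qb was not tested. The EnzR EVs + HDL NPs mice overlapped the PBS mice, at −0.48 in place of the fitted −0.82 (two-sided exact permutation p = 0.20). For Abca1 the ratio was 2.79%, 2.79% and 2.77% in the PBS mice, 2.88%, 2.06% and 2.69% after EnzR EVs, and 2.09%, 2.26% and 2.75% after EnzR EVs + HDL NPs. The PBS mice, at 36.3 to 65.0 CPM, had nearly the same ratio. The EnzR EVs mice overlapped them (log2 ratio of means −0.13), and the EnzR EVs + HDL NPs mice lay below them by 2.75% against 2.77% at the nearest (−0.23, two-sided exact permutation p = 0.10). The part of marrow macrophages in the lower Apoe and Abca1 was not tested.

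**Figure D2:**
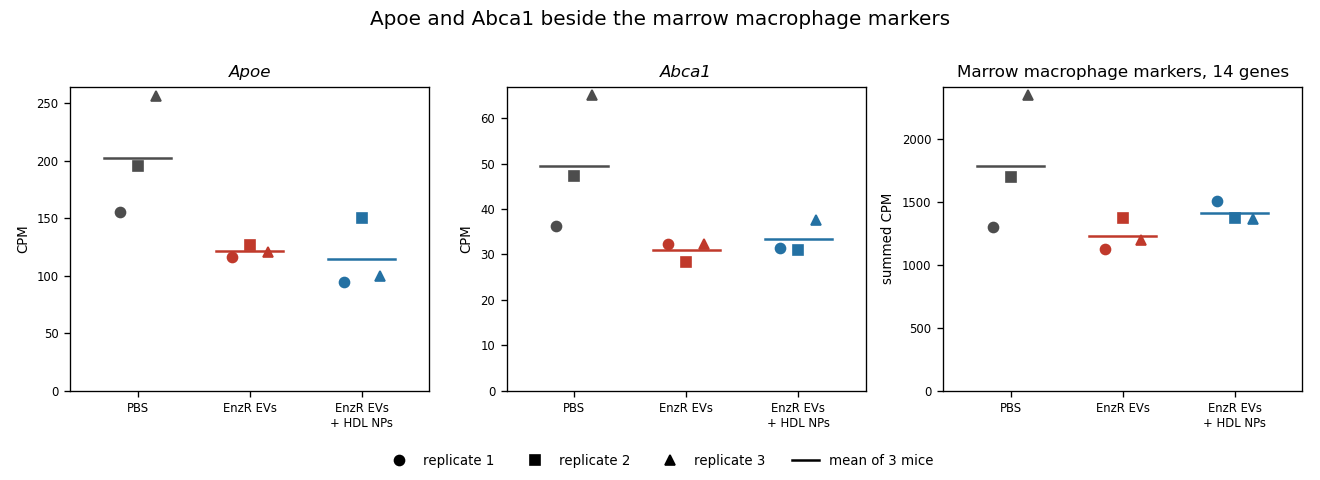
Apoe and Abca1 in CPM and the summed CPM of 14 marrow macrophage markers in each of 9 mice (y axes start at 0; x axis, group; symbols are replicates 1 to 3; lines are means of 3 mice). PBS replicate 3 is highest in all panels, and the EnzR EVs mice lie at 116 to 126 CPM for Apoe, 28.3 to 32.4 CPM for Abca1 and 1126 to 1370 CPM for the markers.

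Abcg1 (chr17:31057675-31117988, plus strand), the pump that loads mature HDL, measured 69.3, 98.2 and 97.7 CPM in the PBS mice, 53.8, 85.3 and 91.7 CPM after EnzR EVs, and 76.4, 96.0 and 97.9 CPM after EnzR EVs + HDL NPs, and the groups overlapped throughout. The log2 fold change was −0.19 for EnzR EVs against PBS (95% interval −0.69 to 0.32, adjusted p = 0.928, edgeR), 0.025 for EnzR EVs + HDL NPs against PBS (−0.48 to 0.52) and 0.21 between the groups given EnzR EVs (−0.29 to 0.72). With each library left out in turn, these values ran from −0.34 to 0.0026, from −0.12 to 0.14 and from 0.019 to 0.36.

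Of the LXR genes, Nr1h2 (chr7:44549616-44553951, minus strand) measured 44.0, 77.5 and 77.6 CPM in the PBS mice, 26.9, 74.6 and 53.6 CPM after EnzR EVs, and 60.5, 88.9 and 60.7 CPM after EnzR EVs + HDL NPs. Nr1h3 (chr2:91184061-91202834, minus strand) measured 2.64, 5.52 and 8.92 CPM, then 2.74, 5.53 and 3.31 CPM, then 5.01, 4.83 and 3.56 CPM, from as few as 5 counts in EnzR EVs replicate 1. Both genes were lower in each of the 3 libraries high in Rn45s than in any of the other 6, at 26.9 to 53.6 CPM against 60.5 to 88.9 CPM for Nr1h2 and 2.64 to 3.31 CPM against 3.56 to 8.92 CPM for Nr1h3. In the comparison of EnzR EVs with PBS the log2 fold change was −0.33 for Nr1h2 (95% interval −1.09 to 0.43) and −0.50 for Nr1h3 (−1.44 to 0.44), and the intervals for Nr1h3 were the widest of the 10 genes. With each library left out in turn, these values ran from −0.66 to −0.050 for Nr1h2 and from −0.89 to −0.030 for Nr1h3. Adding the particles to EnzR EVs gave 0.40 for Nr1h2 (−0.35 to 1.16) and 0.11 for Nr1h3 (−0.83 to 1.05). These 2 values ran from 0.12 to 0.73 and from −0.039 to 0.49 with each library left out in turn. Without the libraries high in Rn45s, where the EnzR EVs group is a single library, they were −0.094 and −0.31.

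The LXR targets Abca1 and Srebf1 were compared in sequence near the start of transcription. Promoters from RefSeq (GRCm38.p6) were matched for 7 of 10 genes and not for Scarb1, Abcg1 and Npc1. The 250 bases before each start were searched on both strands for 2 copies of AGGTCA 4 bases apart, the form bound by LXR with its partner, with at most 3 of 12 letters differing. This matched 18.5% of 32851 promoters. Among the 10 genes it matched the Abca1 promoter and 1 of 3 Srebf1 promoters and no listed promoter of Apoe, Nr1h2, Nr1h3, Mylip or Soat1, which says only that these letters are not in those windows. A narrower string, GGGTTACT, any 2 bases and CGG, was chosen after the sequences were seen. It lay in 6 of 32851 promoters (0.0183%), once in that of Abca1 and at 2 places in that of Srebf1, each on the strand opposite to the one printed. A match is a description of the sequence, and neither binding nor an effect on any level was tested. The stretches, read 5′ to 3′ on the minus strand with the narrower string's complement in capitals, are at chr4:53159917-53159989 for Abca1 and chr11:60210557-60210680 for Srebf1:
Abca1: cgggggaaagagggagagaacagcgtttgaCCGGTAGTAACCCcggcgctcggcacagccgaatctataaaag
Srebf1: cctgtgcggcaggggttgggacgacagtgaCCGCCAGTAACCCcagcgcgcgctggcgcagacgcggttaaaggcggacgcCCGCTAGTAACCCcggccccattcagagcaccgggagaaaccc

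Srebf1 (chr11:60199089-60222581, minus strand) measured 60.7, 40.0 and 40.6 CPM in the PBS mice, 48.3, 46.1 and 49.9 CPM after EnzR EVs, and 38.2, 37.2 and 36.3 CPM after EnzR EVs + HDL NPs. Where Abca1 was lower after EnzR EVs, Srebf1 lay within the range of the PBS mice, at a log2 fold change of 0.035 (SE 0.19, 95% interval −0.38 to 0.45, adjusted p = 0.986, edgeR). The EnzR EVs + HDL NPs mice lay below all mice of both other groups. Against PBS their log2 fold change was −0.33 (95% interval −0.74 to 0.076, adjusted p = 1.00), or −0.11 without PBS replicate 1, and against EnzR EVs it was −0.37 (95% interval −0.78 to 0.045, unadjusted p = 0.0757, adjusted p = 0.466). The 3 libraries high in Rn45s held the 3 highest values, at 48.3 to 60.7 CPM against 36.3 to 46.1 CPM in the other 6. Srebf1 overlaps Rai1 by 109 bp on the opposite strand, and the strand setting of the counting is not given in the sources used here.

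Mylip (chr13:45389742-45412022, plus strand), whose product is a ubiquitin ligase, measured 29.6, 57.1 and 56.5 CPM in the PBS mice, 32.4, 39.8 and 38.2 CPM after EnzR EVs, and 43.1, 53.2 and 47.5 CPM after EnzR EVs + HDL NPs. PBS replicate 1 was the lowest of all 9, and the PBS mice overlapped both other groups. The log2 fold change was −0.37 for EnzR EVs against PBS (95% interval −0.91 to 0.17, adjusted p = 0.928, edgeR; −0.62 to −0.20 with each library left out in turn) and 0.37 for EnzR EVs + HDL NPs against EnzR EVs (95% interval −0.17 to 0.91, adjusted p = 0.517). In the latter comparison the groups failed to overlap, with the added particles the higher, for 2 of 10 genes (Mylip and Npc1), against 8.99% of all tested genes, and the lower for 1 of 10 (Srebf1), against 8.58%.

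Soat1 (chr1:156424525-156474331, minus strand) differed by a ratio of 3.31 between the highest and the lowest mouse. It measured 440, 251 and 247 CPM in the PBS mice, 818, 280 and 457 CPM after EnzR EVs, and 247, 269 and 307 CPM after EnzR EVs + HDL NPs. The 3 highest values were those of the 3 libraries high in Rn45s (440 to 818 CPM), and the other 6 libraries lay between 247 and 307 CPM whatever their group. The fitted log2 fold change was 0.73 for EnzR EVs against PBS (SE 0.36, 95% interval −0.064 to 1.52, unadjusted p = 0.0680, adjusted p = 0.928, edgeR). For EnzR EVs + HDL NPs against EnzR EVs it was −0.91 (SE 0.36, 95% interval −1.70 to −0.12, unadjusted p = 0.0277, adjusted p = 0.461). Without the libraries high in Rn45s these values became 0.18 and −0.035 (unadjusted p = 0.366 and 0.847). Without EnzR EVs replicate 1 they were 0.24 and −0.43, and without EnzR EVs replicate 2 they were 1.05 and −1.24. What sets Soat1 in these 3 libraries was not tested.

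Npc1 on chromosome 18 measured 50.9, 66.4 and 70.5 CPM in the PBS mice, 43.3, 59.3 and 54.0 CPM after EnzR EVs, and 62.4, 61.0 and 63.9 CPM after EnzR EVs + HDL NPs. It had the narrowest spread of the 10 genes, with a ratio of 1.63 between the highest and the lowest mouse. The log2 fold change was −0.25 for EnzR EVs against PBS (95% interval −0.65 to 0.15, adjusted p = 0.928, edgeR), −0.0070 for EnzR EVs + HDL NPs against PBS (−0.40 to 0.39) and 0.25 between the groups given EnzR EVs (−0.15 to 0.64). The first ran from −0.38 to −0.14 and the last from 0.13 to 0.32 with each library left out in turn. Over the other settings the last ran from 0.071 to 0.46. Npc1 was lower in the 3 libraries high in Rn45s (43.3 to 54.0 CPM) than in the other 6 (59.3 to 70.5 CPM). In the annotation Npc1 overlaps Rmc1, which was not matched in the counts, by 511 bp on the opposite strand.

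**Figure D3:**
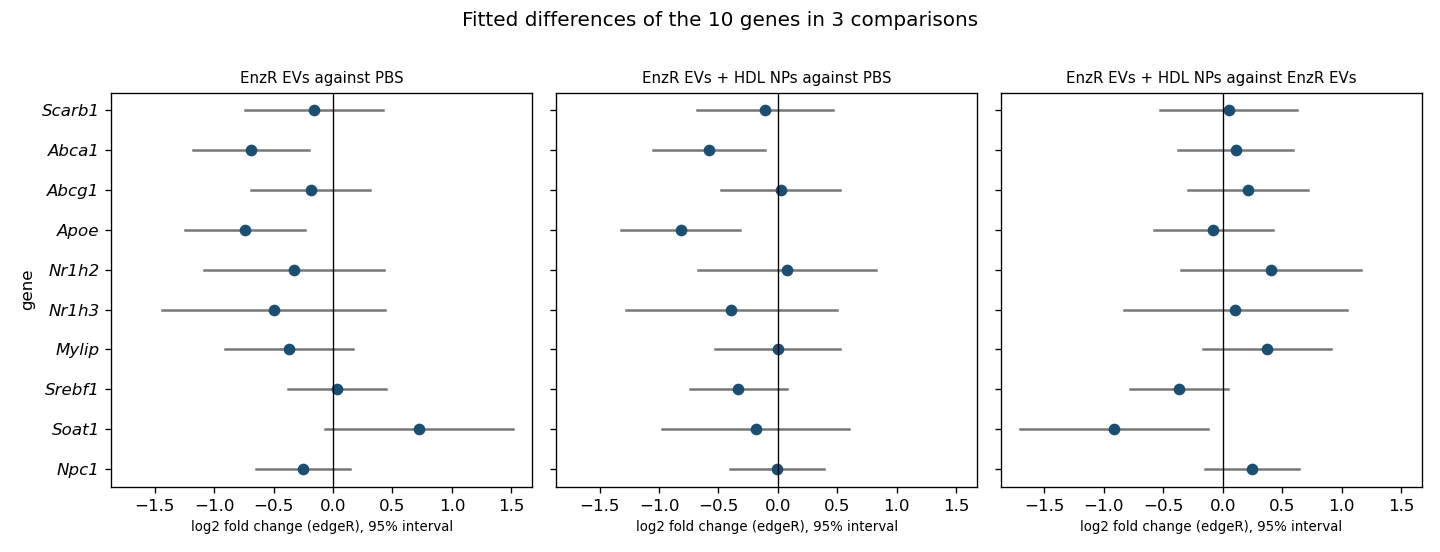
Log2 fold changes of the 10 genes from edgeR (points) with 95% intervals (lines) in 3 comparisons, each named first group against second. The intervals of Apoe and Abca1 lie below 0 in both comparisons with PBS and that of Soat1 lies below 0 between the groups given EnzR EVs, while 0 of 10 genes passed an adjusted p of 0.05.

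The split by Rn45s reached well past Soat1. Of the 12553 tested genes, 15.5% were higher in all 3 libraries high in Rn45s than in any of the other 6, and 17.9% were lower in all 3. Of the 10 genes, Soat1 and Srebf1 were among the former and Nr1h2, Nr1h3, Mylip and Npc1 among the latter. Scarb1, Abca1, Abcg1 and Apoe overlapped. S100a8, a neutrophil transcript, measured 6236, 1746 and 7806 CPM in the 3 libraries and between 12505 and 38307 CPM in the others. Whether RNA quality, depth or the mix of cells sets these libraries apart was not tested.

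**Figure D4:**
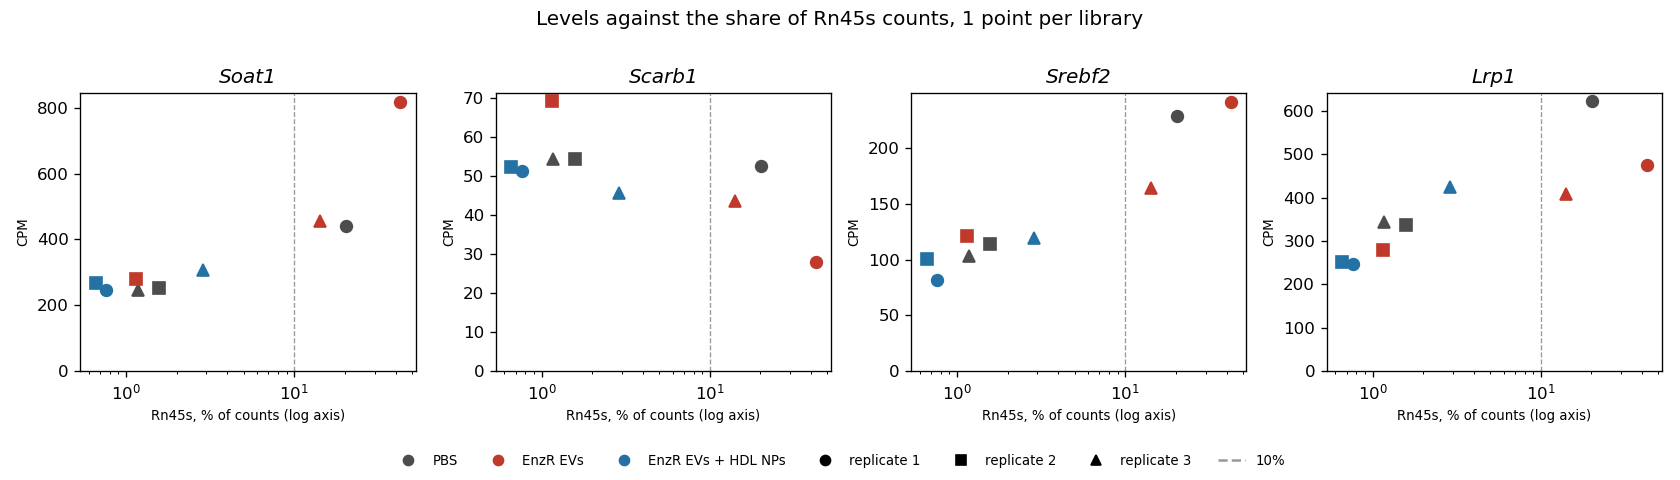
CPM of Soat1, Scarb1, Srebf2 and Lrp1 (y axes start at 0) against the percent of counts on Rn45s (log axis), 1 point per library, colored by group and shaped by replicate, with a dashed line at 10%. Soat1 and Srebf2 are higher in the 3 libraries right of the line (440 to 818 and 165 to 242 CPM) than in the 6 left of it (247 to 307 and 81.8 to 121 CPM), while Scarb1 overlaps.

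Of the partners and further targets of LXR, 16 of 19 listed genes were tested and 0 were called by edgeR in any comparison. For EnzR EVs against PBS, 10 were lower and 6 higher, 3 lower and 0 higher at an unadjusted p under 0.05 (against 1.92% and 1.55% of all tested genes), with a median log2 fold change of −0.24. In the comparison of EnzR EVs + HDL NPs with PBS, 13 were lower and 3 higher, 2 lower and 0 higher at that threshold (against 1.12% and 1.02%), with a median of −0.20. Between the groups given EnzR EVs, 2 were lower and 2 higher at that threshold (against 6.97% and 3.58%), and the median was −0.082. Lpl, which encodes the lipase that frees fatty acids from lipoproteins, measured 87.8, 53.3 and 76.9 CPM in the PBS mice, 42.3, 49.7 and 31.6 CPM after EnzR EVs, and 57.2, 37.2 and 45.3 CPM after EnzR EVs + HDL NPs. The EnzR EVs mice all lay below the PBS mice (log2 fold change −0.82, unadjusted p = 0.00832, adjusted p = 0.928), and the third group overlapped them (−0.64, unadjusted p = 0.0260, adjusted p = 1.00).

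Mertk, a receptor for dying cells, averaged 22.1 ± 11.3 CPM after PBS, 11.4 ± 2.83 CPM after EnzR EVs and 16.6 ± 2.85 CPM after EnzR EVs + HDL NPs, a log2 fold change of −0.96 for EnzR EVs against PBS (unadjusted p = 0.0210, adjusted p = 0.928, edgeR). Both groups given EnzR EVs overlapped the PBS mice. The EnzR EVs + HDL NPs mice lay above all EnzR EVs mice (log2 fold change 0.53, unadjusted p = 0.159, adjusted p = 0.520, edgeR). The libraries high in Rn45s (8.75 to 12.8 CPM) lay below the other 6 (14.4 to 34.7 CPM). Pltp, which encodes the phospholipid transfer protein, was lower in all EnzR EVs + HDL NPs mice (4.22 ± 1.39 CPM) than in the PBS mice (7.19 ± 0.483 CPM), by a log2 fold change of −0.77 (unadjusted p = 0.0236, adjusted p = 1.00). The EnzR EVs mice (3.84, 5.16 and 6.50 CPM) also lay below all PBS mice (log2 fold change −0.41, adjusted p = 0.928, edgeR). Scd2, a fatty acid desaturase gene, was lower in all mice given the particles than in any EnzR EVs mouse (log2 fold change −1.64, unadjusted p = 0.0169, adjusted p = 0.461), yet its values of 168, 192 and 86.4 CPM in the libraries high in Rn45s stood above the 27.1 to 64.7 CPM of the other 6. Abca7, the most abundant of these genes per kilobase, showed the same split, at 542 to 596 against 342 to 453 CPM.

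Among lipoprotein and scavenger receptors, 14 of 15 listed genes were tested and 0 were called by edgeR. The median log2 fold change was −0.19 for EnzR EVs against PBS, −0.033 for EnzR EVs + HDL NPs against PBS and −0.025 between the groups given EnzR EVs. Cd36, the fatty acid receptor of the same family as Scarb1, measured 8.10, 19.5 and 25.3 CPM in the PBS mice, 7.68, 11.9 and 9.58 CPM after EnzR EVs, and 19.98, 18.8 and 21.8 CPM after EnzR EVs + HDL NPs. The mice given HDL NPs lay above all EnzR EVs mice, by a log2 fold change of 1.00 (unadjusted p = 0.0164, adjusted p = 0.461). Its lowest PBS value was again that of replicate 1, and all 3 libraries high in Rn45s (7.68 to 9.58 CPM) lay below the other 6 (11.9 to 25.3 CPM).

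Cd68, a macrophage scavenger receptor gene, was the most abundant of the list per kilobase of the longest transcript by the mean over 9 libraries. It lay at 11.5 to 28.1 CPM in the libraries high in Rn45s and 32.3 to 54.7 CPM in the other 6. Msr1, the class A scavenger receptor gene, was at 28.3 ± 9.74 CPM after EnzR EVs and 42.3 ± 8.53 CPM after EnzR EVs + HDL NPs, with overlap (log2 fold change 0.54, unadjusted p = 0.0477, adjusted p = 0.461). Pdzk1, which encodes an adaptor of the Scarb1 product, averaged 6.49 ± 2.12 CPM after PBS, 4.88 ± 1.34 CPM after EnzR EVs and 4.45 ± 0.828 CPM after EnzR EVs + HDL NPs, with overlap. Lrp1, a large endocytic receptor gene, averaged 435 ± 163, 388 ± 99.7 and 307 ± 101 CPM in the same order, with PBS replicate 1 highest at 623 CPM. Per kilobase, Lrp1 was above Cd68 in PBS replicate 1 (41.9 against 21.5 CPM per kb) and EnzR EVs replicates 1 (31.9 against 9.37) and 3 (27.4 against 22.9). The same held in EnzR EVs + HDL NPs replicate 3 (28.5 against 26.3).

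For cholesterol handling inside the cell, 14 of 17 listed genes were tested and 0 were called by edgeR, with median log2 fold changes of −0.17, −0.0042 and 0.096 in the 3 comparisons. Soat2, the second esterifying enzyme, measured 1.41, 0.978 and 1.37 CPM in the PBS mice, 6.04, 2.45 and 3.67 CPM after EnzR EVs, and 2.03, 1.31 and 1.47 CPM after EnzR EVs + HDL NPs. All EnzR EVs mice lay above the mice of both other groups, by a log2 fold change of 1.57 against PBS (unadjusted p = 0.00401, adjusted p = 0.928) and with −1.19 for EnzR EVs + HDL NPs against EnzR EVs (unadjusted p = 0.0150, adjusted p = 0.461). The gene had at most 46 counts in a library. Unlike Soat1, its PBS replicate 1 (1.41 CPM) was close to PBS replicate 3 (1.37 CPM), and its values overlapped between libraries high and low in Rn45s. Within the EnzR EVs group, replicates 1 and 3, both high in Rn45s, lay above replicate 2 (6.04 and 3.67 against 2.45 CPM). Cyp27a1, which makes the LXR ligand 27-hydroxycholesterol, averaged 24.2 ± 8.60 CPM after PBS, 12.5 ± 6.13 CPM after EnzR EVs and 22.2 ± 2.24 CPM after EnzR EVs + HDL NPs (log2 fold change −0.87 for EnzR EVs against PBS, unadjusted p = 0.0310, adjusted p = 0.928). EnzR EVs and PBS overlapped, as PBS replicate 1 (15.0 CPM) lay below EnzR EVs replicate 3 (17.0 CPM). All EnzR EVs + HDL NPs mice lay above the EnzR EVs mice (log2 fold change 0.74, unadjusted p = 0.0594, adjusted p = 0.461, edgeR). Stard4, a sterol carrier gene, was higher and Gramd1b, which encodes a sterol transporter at membrane contacts, lower in each library high in Rn45s than in any other. Lamp1, the most abundant per kilobase, lay between 281 and 427 CPM in all 9.

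In the sterol synthesis and SREBP2 list, 24 of 24 genes were tested and 0 were called by edgeR. The median log2 fold change was −0.057 for EnzR EVs against PBS, −0.25 for EnzR EVs + HDL NPs against PBS, where 20 genes were lower and 4 higher, and −0.19 between the groups given EnzR EVs. The second of these medians was −0.035 without PBS replicate 1. Srebf2, the master regulator of the pathway and the most abundant per kilobase of its genes with a matched length (all but Msmo1), measured 229, 114 and 103 CPM in the PBS mice, 242, 121 and 165 CPM after EnzR EVs, and 81.8, 100.3 and 119.9 CPM after EnzR EVs + HDL NPs. The last group lay below all EnzR EVs mice (log2 fold change −0.80, unadjusted p = 0.0375, adjusted p = 0.461), but the 3 highest values were those of the libraries high in Rn45s. Mvk was lower after EnzR EVs + HDL NPs (3.96 ± 0.701 CPM) than in any PBS mouse (10.2, 5.23 and 5.09 CPM, the highest in the library high in Rn45s; log2 fold change −0.75, unadjusted p = 0.0437, adjusted p = 1.00), and Fdps was lower than in any EnzR EVs mouse (13.3 ± 1.38 against 21.7 ± 4.53 CPM; −0.72, unadjusted p = 0.0670, adjusted p = 0.461).

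**Figure D5:**
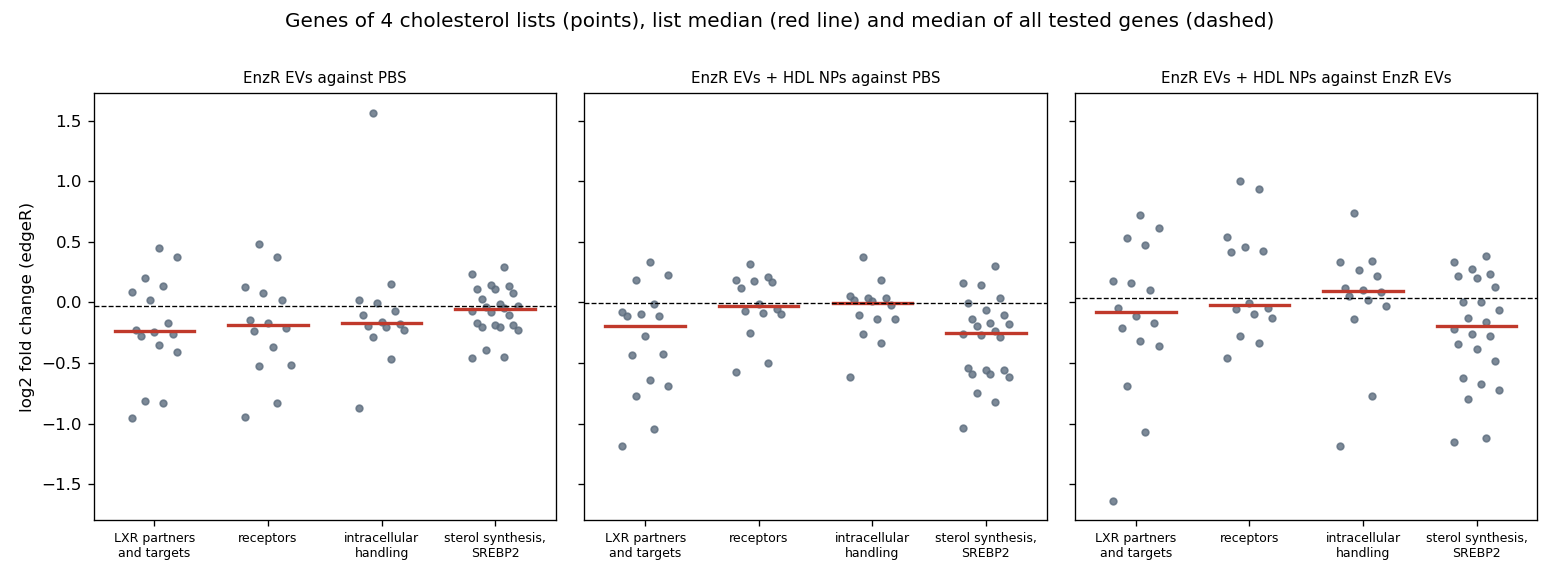
Log2 fold changes from edgeR (y axis) of the tested genes of 4 cholesterol lists (16, 14, 14 and 24 points from left to right) in 3 comparisons, with the median of each list (red line) and of all 12553 tested genes (dashed line). The sterol synthesis median lies at −0.25 for EnzR EVs + HDL NPs against PBS (−0.035 without PBS replicate 1), and 0 of the plotted genes passed an adjusted p of 0.05.

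Markers of other cell types were summed in the same way, and the sums overlapped between groups except for T and NK markers between the groups given EnzR EVs. The most abundant marker of each list is named by its mean over the 9 libraries. Summed B lineage markers (8 of 8 in the counts, most abundant Cd79b) lay between 7.82 and 23.8 CPM. Against PBS, 7 of 7 tested B lineage markers were lower after EnzR EVs and 7 of 7 after EnzR EVs + HDL NPs (median log2 fold changes −0.98 and −0.69), with 2 and 1 at an unadjusted p under 0.05, against the same 1.92% and 1.12%, and 0 and 0 called by edgeR. The summed stromal and endothelial markers (9 of 9, most abundant Cxcl12) lay between 37.1 and 104.7 CPM. Platelet and megakaryocyte markers (9 of 9, most abundant Itgb3) lay between 121 and 227 CPM. After EnzR EVs, 6 of 8 tested platelet, 4 of 5 T and NK and 5 of 8 stromal markers were lower than in PBS. After EnzR EVs + HDL NPs it was 7 of 8, 5 of 5 and 6 of 8. Of these, only 1 T and NK marker after EnzR EVs had an unadjusted p under 0.05, against 1.92% of all tested genes, and 0 were called by edgeR. Erythroid markers (12 of 13, most abundant the beta-globin gene listed as Beta-s) lay between 50.6 and 346 CPM, and 4 globin genes, Hba-a1, Hba-a2, Hbb-b1 and Hbb-b2, were listed at 0 in all libraries. Against PBS, 7 of 8 tested erythroid markers were lower after EnzR EVs and 8 of 8 after EnzR EVs + HDL NPs (median log2 fold changes −1.06 and −0.56), with 3 and 0 at an unadjusted p under 0.05, again against 1.92% and 1.12%, and 0 and 0 called by edgeR. T and NK markers (8 of 8, most abundant Nkg7) lay between 45.8 and 55.6 CPM in the PBS mice, and the EnzR EVs mice (48.1 to 77.9 CPM) were all above the EnzR EVs + HDL NPs mice (29.4 to 47.9 CPM). Nkg7 carried this order: without it the sums were 10.98, 12.5 and 9.58 CPM after EnzR EVs and 18.5, 13.1 and 12.02 CPM after EnzR EVs + HDL NPs, and 4 of 5 tested markers were higher in the latter group. The remaining 1 was lower there at an unadjusted p under 0.05, against 6.97% of all tested genes, and 0 were called by edgeR. The part of these cells in the levels above was not tested.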

How the data were processed

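For each stranded total RNA library the deposited table holds the authors' unnormalized read count of every gene, made with cutadapt 1.13, STAR and HTSeq 0.6.1p1 on mm10 per the labels. CPM and tests were computed here from these counts in R 4.3.3, by edgeR 4.0.16 (filterByExpr, TMM, robust quasi-likelihood fit to 9 libraries, 1 coefficient per group, Benjamini-Hochberg adjustment over 12553 genes, threshold 0.05). CPM values are scaled by TMM factors, and log2 CPM has a prior count of 2. Single values were compared by two-sided exact permutation tests. Alternatives were DESeq2 1.42.0, limma 3.58.1 voom with or without sample quality weights, other normalizations and filters, 6 libraries, the replicate block, and libraries left out.

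The 10 genes and all lists were chosen with earlier results of these data known. From each list its most abundant gene per kilobase and genes among the 4 smallest unadjusted edgeR p over the comparisons are named, and for Scarb1 the 5 highest r. The most abundant gene of a list is the highest by the mean over 9 libraries, and not in every library. Other genes named (Cd5l, Axl, Itgam and S100a8) were chosen after their values were seen. Coordinates and lengths are from GENCODE on GRCm38, matched by symbol for 89.8% of genes, and older symbols were matched through RefSeq synonyms. The fit was tested on simulated data, but the outcome is not given here and no result rests on it. Replicates are taken as separate mice from the written methods and labels. The most similar libraries of a group, PBS replicates 2 and 3, had a chi-square of 4.70 for the average gene, which excludes only resequencing of 1 library. All 9 libraries were mapped to groups, and 0 were left unmapped. The labels name Trizol for RNA extraction and the written methods a column kit.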

Additional observations from a re-analysis of the deposited data

How the results depend on the processing

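Genes called by edgeR stayed at 0 in each comparison with library size only, DESeq2 size factors, Rn45s left out, or at least 10 counts in every library. DESeq2 was run on 18797 genes without the filter on low counts, so tool and filter differ together. For EnzR EVs against PBS the count was 8 with DESeq2, 1990 with voom quality weights, 1 in edgeR without a filter, 5 without the 2 lowest totals, 10 without libraries with over 10% Rn45s, and 0 to 2 with each replicate left out. For EnzR EVs + HDL NPs against PBS it was 7 with DESeq2 and 10 with quality weights. For EnzR EVs + HDL NPs against EnzR EVs it was 1 with DESeq2, 653 with quality weights, 1 with 6 libraries, 1 without the 2 lowest totals, 1 without libraries with over 10% Rn45s, and 0 to 1 with each replicate left out. The labels give no link between mice of the same replicate number. Deviations from the group means correlated above 0.1 in 6 of 9 same-numbered pairs (range −0.175 to 0.492, mean 0.174, against a mean of −0.0759 for other pairs), among them all 3 pairs of EnzR EVs with PBS (0.473, 0.492 and 0.131). As this was not every pair, and not every library correlated best with its own number, the fit has no block. A replicate block gave 1 called gene for EnzR EVs against PBS and 0 in the others, with 0 of 10 genes called.

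Of the 10 genes, 4 were called for EnzR EVs against PBS with quality weights, beside 15.9% of all tested genes: Abca1 (−0.77, adjusted p = 0.0222), Apoe (−0.85, adjusted p = 0.0175), Mylip (−0.54, adjusted p = 0.0329) and Soat1 (0.84, adjusted p = 0.0175). The weights were 0.365, 3.61 and 3.17 for PBS replicates 1 to 3 and 0.315, 0.334 (the deepest library) and 2.65 for EnzR EVs replicates 1 to 3, so 1 EnzR EVs and 2 PBS libraries carried most of the weight, and 0 of 10 were called in any other setting or comparison. Over all settings the adjusted p for EnzR EVs against PBS ran from 0.0222 to 1.00 for Abca1 and from 0.0175 to 1.00 for Apoe, Mylip from 0.0329 to 1.00 and Soat1 from 0.0175 to 1.00.

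Of 627 alternative log2 fold changes of the 10 genes, 564 kept direction and call, 4 gained a call and 59 changed sign, and 16 of 30 results never changed sign, among them Apoe and Abca1 against PBS. Sign changes lay near 0 or followed the left-out libraries. Without libraries with over 10% Rn45s, Scarb1 was 0.35 for EnzR EVs against PBS and −0.48 for EnzR EVs + HDL NPs against EnzR EVs, where Nr1h2 was −0.094 and Nr1h3 −0.31, and for EnzR EVs + HDL NPs against PBS Abcg1 was −0.12, Nr1h2 −0.15 and Soat1 0.14. Without the 2 lowest totals the corresponding values were 0.071 and −0.20 for Scarb1, −0.028 for Nr1h3, −0.12 for Abcg1, −0.15 for Nr1h2 and 0.14 for Soat1. With quality weights, EnzR EVs + HDL NPs against PBS gave Abcg1 −0.083, Nr1h2 −0.076 and Soat1 0.095. With library size only, Srebf1 was −0.12 for EnzR EVs against PBS, Apoe 0.14 for EnzR EVs + HDL NPs against EnzR EVs, and Mylip 0.030 and Npc1 0.041 for EnzR EVs + HDL NPs against PBS. In that comparison Mylip was also 0.0088 with DESeq2, 0.0063 with voom, 0.0064 with DESeq2 size factors, 0.0030 with Rn45s left out, 0.0040 without a filter, 0.0046 with at least 10 counts and 0.044 with the replicate block, and Npc1 0.00047 without a filter, 0.00019 with at least 10 counts and 0.011 with the replicate block. Relative to the macrophage markers, added after seeing the data, Abca1 was −0.10 for EnzR EVs + HDL NPs against EnzR EVs. The causes were not tested.

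With each replicate left out, results that changed sign ran as follows. For EnzR EVs against PBS, Scarb1 ran from −0.52 to 0.080, Abcg1 from −0.34 to 0.0026 and Srebf1 from −0.054 to 0.25. For EnzR EVs + HDL NPs against PBS, Abcg1 ran from −0.12 to 0.14, Nr1h2 from −0.15 to 0.21, Nr1h3 from −0.69 to 0.076, Mylip from −0.25 to 0.15, Soat1 from −0.34 to 0.14 and Npc1 from −0.13 to 0.080. For EnzR EVs + HDL NPs against EnzR EVs, Scarb1 ran from −0.19 to 0.42, Abca1 from −0.0010 to 0.16, Apoe from −0.34 to 0.036 and Nr1h3 from −0.039 to 0.49. The list medians also moved over 18 alternatives: for EnzR EVs + HDL NPs against PBS, sterol synthesis ran from −0.36 to −0.033, while cholesterol handling changed sign in 9 and receptors in 3. Signs also changed in 3 for sterol synthesis after EnzR EVs against PBS, and between the groups given EnzR EVs in 4 for LXR targets, 6 for receptors, 3 for handling and 1 for sterol synthesis. Library size only moved the median of all genes to −0.18, 0.047 and 0.24 in the 3 comparisons.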
